A study of Homo sapiens with 12 samples.

Results

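The ATP-binding cassette (ABC) genes were described across 6 sorted gastric cancer cell populations. Members were the rows whose symbol was ABC, a subfamily letter from A to G and a number, and 47 of the 34595 genes with a value met this. They comprised 13 ABCA, 9 ABCB, 12 ABCC, 4 ABCD, 1 ABCE, 3 ABCF and 5 ABCG genes. Relatives under other names, such as TAP1 and CFTR, were outside the rule.

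The cells were untreated established gastric cancer lines, KATO-III, SNU-216 and SNU-601, and each line was stained with an antibody against CD133, a membrane glycoprotein encoded by PROM1 and used as a stem cell marker. Flow cytometry then collected the most brightly stained cells as CD133+ and the cells overlapping the isotype control as CD133-. Total RNA from each of the 6 populations was hybridized to 2 Illumina HT-12 v3 BeadChip arrays, which gave 12 arrays, 4 per line and 6 per fraction. The array labels name SNU-216, whereas the deposited design text names SNU201, and whether the 2 arrays of a population came from separate sorts is not stated, so that p-values measure the spread between arrays. Each line was a single culture as far as the labels state, and differences between lines are differences between these cultures.

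The deposited intensities were quantile-normalized and linear. Between 16320 and 16474 genes lay above the floor of 32.7 on an array. Quantile normalization makes this number nearly equal between arrays, so it cannot show a poor array. The median SD between the 2 arrays of a population ranged from 0.0669 to 0.0735 on the log2 scale, and no population stood apart in it. PROM1 was higher in CD133+ cells by 1.10, 2.02 and 1.86 on the log2 scale in KATO-III, SNU-216 and SNU-601. All 6 rows of epithelial markers (EPCAM, its older symbol TACSTD1, CDH1, KRT8, KRT18 and KRT19) were above the floor on all 12 arrays. Of 10 markers of other cell types, PTPRC, CD3E, PECAM1, COL3A1 and DCN were never above the floor.

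ABC proteins bind and hydrolyze ATP, and most of them use this energy to move a substrate across a membrane. Full transporters carry a pair of membrane and nucleotide-binding domains, whereas smaller members assemble as dimers, often in mitochondria, peroxisomes or lysosomes. ABCB1, ABCG2 and several ABCC proteins are known for exporting anticancer drugs and conjugates, and ABCG2 is known for the dye efflux used to isolate stem-like cells. ABCA and other ABCG proteins mostly move sterols and phospholipids, and ABCE and ABCF proteins lack a membrane domain and act on ribosomes and translation.

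Tests were limited to genes above the floor on 2 or more arrays, and 25 of the 47 members passed. Another 20 members were never above the floor and 2 were above it on 1 array, and 18 members were above it on all 12. The filter keeps a gene that is high in only 1 population, so the counts below refer to the members that passed and not to the family. Changes are CD133+ minus CD133- on the log2 scale, with values under the floor set to the floor. Adjusted p-values are Benjamini-Hochberg values from limma over all 20147 genes tested, and a gene is called at 0.05.

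Within a line, members changed in both directions, as the plot of changes by line shows. In KATO-III, 6 of 25 members were called higher in CD133+ cells and 5 lower, against 18.7% and 20.6% of all genes tested. In SNU-216, 3 were higher and 8 lower, against 14.6% and 14% of all genes. In SNU-601, 1 was higher and 4 were lower, against 8.59% and 7.78% of all genes. Bulk RNA cannot tell a lower level per cell from fewer cells that express a gene. The median change of the 25 members was -0.01, 0.00 and -0.07 in KATO-III, SNU-216 and SNU-601, and the median over all genes was 0.00 in each line. Genes under the floor on all arrays of a line enter these medians at 0.

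**Figure D1:**
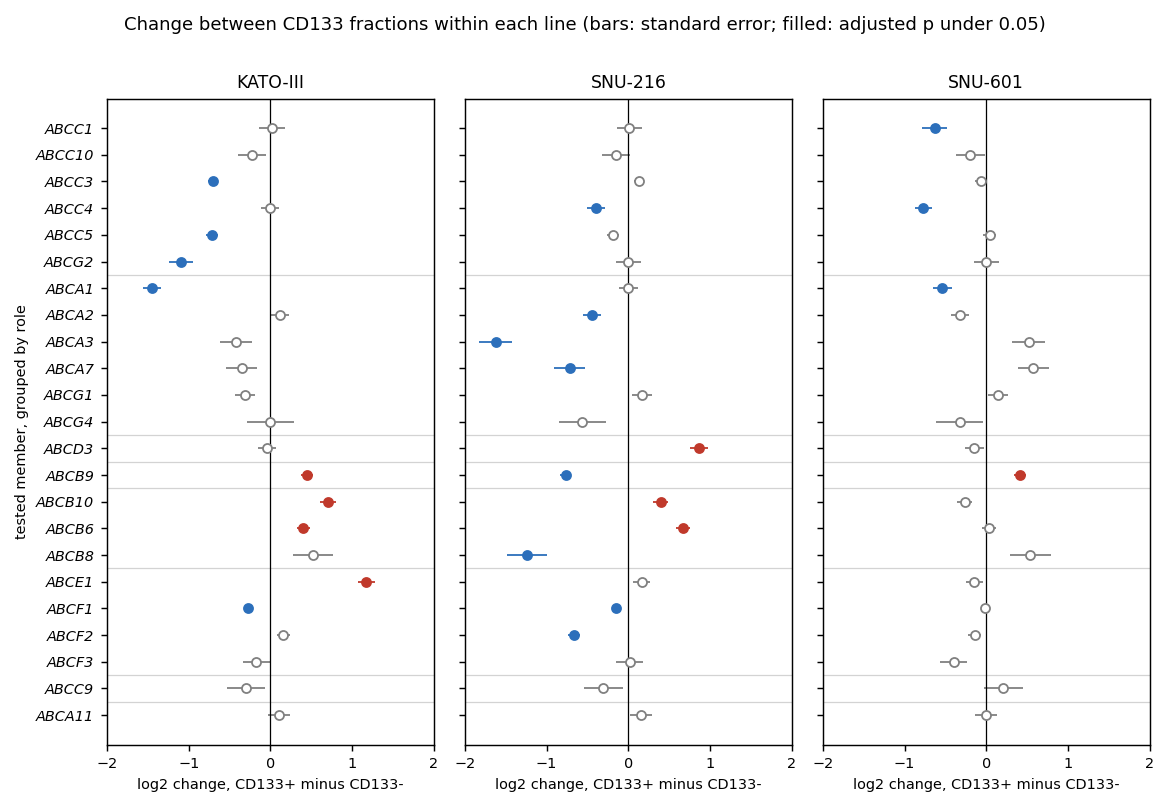
Log2 change between CD133+ and CD133- cells (x axis) of tested members (y axis, grouped by role) in each line. Points are limma estimates, bars are standard errors, and filled points have an adjusted p under 0.05 (red higher, blue lower in CD133+ cells). In KATO-III the filled points include ABCE1 at 1.17 and ABCA1 at -1.45, and no filled point among the first 6 genes, the efflux transporters, lies above 0 in any line. Of all genes tested, 18.7%, 14.6% and 8.59% were called higher in KATO-III, SNU-216 and SNU-601, which amounts to few calls among 6 genes. ABCG2 is set to 0 by the floor in SNU-216 and SNU-601.

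RefSeq windows before the start site (GRCh38.p14) are shown for the members with a single window in the table used and the largest called change in KATO-III, ABCE1 and ABCB10 on the higher side and ABCA1 and ABCC5 on the lower side. Each is the 250 bases before the start, read 5′ to 3′ on the strand of the gene. Capitals mark matches on either strand to the letters searched, which were GGGCGG (called a GC box), CCAAT (named for its letters), TATAAA (found near many start sites), CACGTG (called an E-box), AGGTCA (nuclear receptor site core), TGACNNNGC (antioxidant response element core) and TGACGTCA (cAMP response element, added after the ABCE1 window was seen). No 2 matches overlapped.
ABCB10 (chr1:229558708-229558957, minus strand): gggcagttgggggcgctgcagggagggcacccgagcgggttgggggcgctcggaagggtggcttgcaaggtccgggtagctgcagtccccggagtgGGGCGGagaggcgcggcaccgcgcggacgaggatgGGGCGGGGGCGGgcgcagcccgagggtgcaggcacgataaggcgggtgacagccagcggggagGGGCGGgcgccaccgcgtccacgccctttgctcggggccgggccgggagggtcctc
ABCE1 (chr4:145098061-145098310, plus strand): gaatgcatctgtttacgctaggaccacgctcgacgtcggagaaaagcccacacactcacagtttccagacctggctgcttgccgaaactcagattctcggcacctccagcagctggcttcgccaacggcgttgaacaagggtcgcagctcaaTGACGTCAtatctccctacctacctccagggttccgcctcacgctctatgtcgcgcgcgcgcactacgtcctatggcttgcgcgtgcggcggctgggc
ABCA1 (chr9:104928156-104928405, minus strand): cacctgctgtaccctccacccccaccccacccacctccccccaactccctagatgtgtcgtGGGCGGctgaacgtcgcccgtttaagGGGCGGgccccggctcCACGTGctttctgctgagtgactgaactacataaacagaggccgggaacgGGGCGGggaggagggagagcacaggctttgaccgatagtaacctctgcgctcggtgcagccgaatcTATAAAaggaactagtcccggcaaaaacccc
ABCC5 (chr3:184017885-184018134, minus strand): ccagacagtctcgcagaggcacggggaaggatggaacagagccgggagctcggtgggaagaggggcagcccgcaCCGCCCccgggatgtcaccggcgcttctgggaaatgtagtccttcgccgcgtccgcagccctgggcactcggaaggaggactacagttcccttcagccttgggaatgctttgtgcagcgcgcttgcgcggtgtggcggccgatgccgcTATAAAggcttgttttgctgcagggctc

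The ABCB10 window held 4 GC boxes, starting 154, 119, 113 and 56 bases before the start, and neither CCAAT nor TATAAA. The ABCE1 window held TGACGTCA starting at base -98 and none of the other letters. The ABCA1 window held 3 GC boxes, CACGTG at -147 and TATAAA at -31, and the ABCC5 window held 1 GC box on the opposite strand at -176 and TATAAA at -28. G and C made up 77.2% of the ABCB10 window, 60% of ABCE1, 61.6% of ABCA1 and 64.8% of ABCC5, and the median over all 35116 windows of the table was 58%. Of all windows, 42.6% held GGGCGG, 32.0% CCAAT, 10.7% TATAAA, 6.34% CACGTG, 12.1% AGGTCA, 10.9% TGACNNNGC and 1.65% TGACGTCA. Of the 53 windows of the 35 members found in the table, 47.2%, 20.8%, 11.3%, 17.0%, 3.77%, 17.0% and 1.89% held these letters in the same order. A match is a description of letters, not of a bound site.

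Among the 11 drug and conjugate exporters, no member was called higher in CD133+ cells in any line. Only 6 were tested, of which 3 were lower in KATO-III, 1 in SNU-216 and 2 in SNU-601. Of all genes tested, 18.7%, 14.6% and 8.59% were called higher and 20.6%, 14% and 7.78% lower in these lines, which amounts to few calls among 6 genes. The median change of these 6 was -0.46, -0.08 and -0.13 in KATO-III, SNU-216 and SNU-601, beside 0.00 over all genes in each. In SNU-216 and SNU-601 it includes ABCG2, whose change there is set to 0 by the floor.

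ABCB1, the P-glycoprotein that exports many chemotherapeutic drugs, was not above the floor on any array. Its intensities were 6.69 and 3.29 on the CD133+ arrays of KATO-III and -3.44 and 7.09 on the CD133- arrays. They were -2.44 and 8.79 against -0.102 and -14.1 in SNU-216, and -3.30 and -6.79 against -14.8 and -4.94 in SNU-601. These values lie on both sides of 0 and under the floor, where they carry no order, so that only a bound at the floor can be given for either fraction.

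ABCG2, an exporter of drugs, urate and dyes, was above the floor only on the 4 KATO-III arrays. There its intensities were 55.4 and 54.2 in CD133+ cells and 98.6 and 139 in CD133- cells, and all 8 arrays of SNU-216 and SNU-601 were between -38.1 and -12.7. Both CD133- arrays of KATO-III were above both CD133+ arrays, and ABCG2 was lower in CD133+ cells by 1.09 (SE 0.15, adjusted p = 0.000492). With only the 4 KATO-III arrays in the fit, it was no longer called (adjusted p = 0.0637). KATO-III was at least 2.45-fold above SNU-216 and SNU-601, whose arrays were all under the floor.

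ABCC3, which exports glucuronide conjugates and bile salts across the basolateral membrane, had intensities of 3908 and 3823 in CD133+ and 5998 and 6573 in KATO-III CD133- cells. The values were 765 and 833 against 712 and 745 in SNU-216, and 5648 and 6100 against 6037 and 6274 in SNU-601. The fractions were apart in KATO-III, where ABCC3 was lower in CD133+ cells by 0.70 (SE 0.06, adjusted p = 4.58e-05), and they overlapped in SNU-601. Over both fractions, ABCC3 was 6.46-fold higher in KATO-III than in SNU-216 (adjusted p = 5.02e-11) and 7.88-fold lower in SNU-216 than in SNU-601 (adjusted p = 2.59e-11). Its change was 0.13 (SE 0.06) in SNU-216 and -0.07 (SE 0.06) in SNU-601, with adjusted p = 0.18 and 0.576.

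ABCC5, an exporter of cyclic nucleotides and nucleotide analogs, followed the same order of fractions in KATO-III, with 280 and 297 in CD133+ and 456 and 492 in CD133- cells. It was lower in CD133+ cells by 0.72 (SE 0.08, adjusted p = 9.77e-05). In SNU-216 the intensities were 247 and 241 against 292 and 264, which did not overlap but differed by -0.19 (SE 0.08, adjusted p = 0.105). In SNU-601 they were 667 and 652 against 647 and 635, a change of 0.04 (SE 0.08, adjusted p = 0.85).

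ABCC4, an exporter of cyclic nucleotides and prostaglandins, had overlapping fractions in KATO-III, with 676 and 649 against 633 and 701. It was lower in the CD133+ cells of SNU-601, with 486 and 451 against 764 and 831, by 0.77 (SE 0.11, adjusted p = 0.00226). In SNU-216 the values were 296 and 287 against 429 and 340, a fall of 0.39 (SE 0.11, adjusted p = 0.0267). The SNU-216 call was lost without CD133+ replicate 1 or 2 or CD133- replicate 1 of that line (adjusted p up to 0.144). KATO-III and SNU-601 were 1.99-fold and 1.83-fold above SNU-216 over both fractions.

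ABCC1, the exporter of glutathione conjugates and leukotrienes, was at 105 and 80.6 against 91.1 and 90.1 in KATO-III and at 85.3 and 91.3 against 93.9 and 81.6 in SNU-216, and the fractions overlapped in both lines. In SNU-601 it was at 167 and 145 in CD133+ and 248 and 233 in CD133- cells, lower by 0.63 (SE 0.15, adjusted p = 0.0248). This call was lost without CD133+ replicate 2, CD133- replicate 1 or CD133- replicate 2 of SNU-601 (adjusted p up to 0.123). SNU-601 was 2.12-fold above KATO-III and 2.20-fold above SNU-216.

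ABCC10, a broad drug exporter, was not called in any line, with changes of -0.23 (SE 0.18), -0.15 (SE 0.18) and -0.19 (SE 0.18) in KATO-III, SNU-216 and SNU-601 and adjusted p = 0.37, 0.627 and 0.556. Its intensities were 118 and 120 against 132 and 147 in KATO-III, 96.3 and 126 against 116 and 129 in SNU-216, and 207 and 241 against 225 and 291 in SNU-601. The fractions overlapped in SNU-216 and SNU-601. As for ABCC1, SNU-601 was the highest line, 1.86-fold above KATO-III and 2.06-fold above SNU-216.

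**Figure D2:**
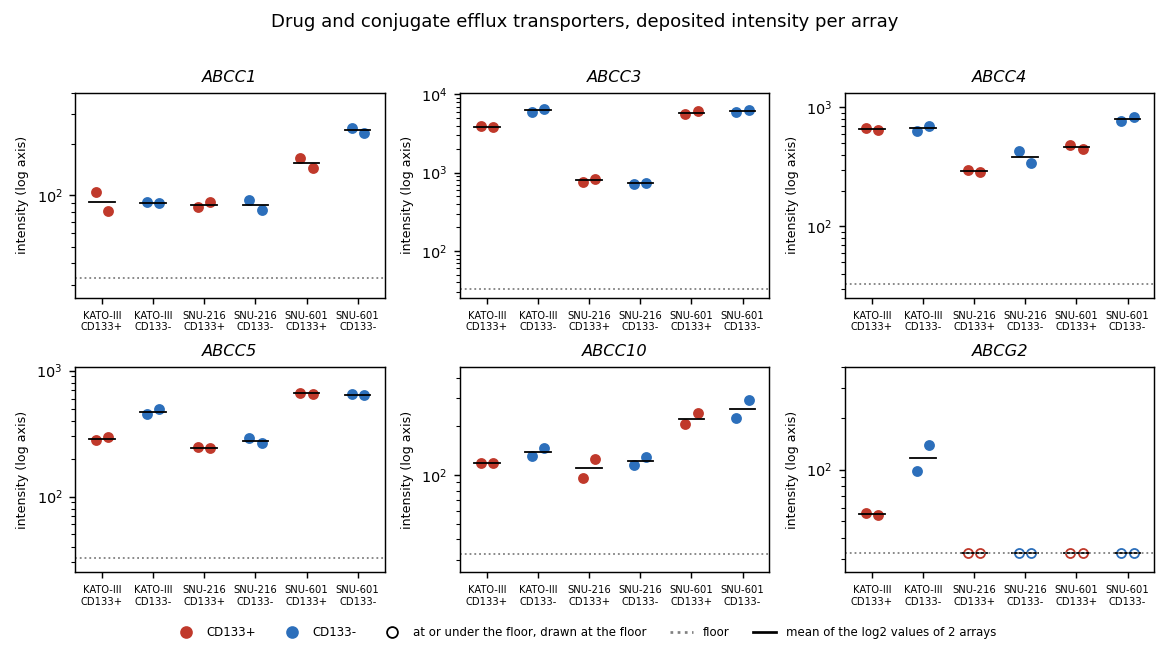
Deposited intensity (y axis, log scale, different for each gene) of the 6 tested efflux transporters on each array, by population (x axis). Bars are the mean of the log2 values of 2 arrays, the dotted line is the floor, and open circles are arrays at or under it. ABCG2 is above the floor only in KATO-III, and ABCC3 lies between 712 and 833 in SNU-216 and at 3823 or more elsewhere.

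The other ABCC genes were near or under the floor. ABCC2, an apical exporter of conjugates, was between -34.7 and 13.6, and ABCC6, ABCC11 and ABCC12 were also never above the floor. ABCC9, a sulfonylurea receptor that regulates potassium channels, lay between 26 and 59.1, above the floor on 9 arrays, and was called in no line. ABCC8, the other sulfonylurea receptor, and ABCC13, a locus thought not to encode a working transporter, were never above it.

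Of the 17 lipid and sterol transporters, 6 were tested, and none was called higher in CD133+ cells in any line. In KATO-III 1 was lower, in SNU-216 3 were lower and in SNU-601 1 was lower, beside 20.6%, 14% and 7.78% of all genes. The shares of all genes called higher (18.7%, 14.6% and 8.59%) amount to few calls among 6 genes. The median change of the 6 was -0.33, -0.50 and -0.09, beside 0.00 over all genes in each line. These medians include ABCA1, set to 0 by the floor in SNU-216, and ABCG4, above the floor on only 3 arrays.

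ABCA1, which loads cholesterol and phospholipid onto apolipoprotein A-I, showed the largest fall of the tested members in KATO-III. Its intensities were 250 and 249 in CD133+ and 719 and 645 in CD133- cells. It was lower by 1.45 (SE 0.11, adjusted p = 1.94e-05), a 2.73-fold difference. In SNU-601 the values were 173 and 194 against 280 and 252, lower in both CD133+ arrays by 0.54 (SE 0.11, adjusted p = 0.0136). The SNU-601 call was lost without CD133+ replicate 1 or CD133- replicate 1 of that line (adjusted p up to 0.0762). All 4 SNU-216 arrays were under the floor, between -20.6 and -0.732, and KATO-III and SNU-601 were at least 12.6-fold and 6.75-fold above them.

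ABCG1, which moves cholesterol to high-density lipoprotein, had intensities of 179 and 204 against 235 and 239 in KATO-III and no more than 38.5 on any array of the other lines. KATO-III was 6.16-fold above SNU-216 and above SNU-601 with values under the floor set to the floor. The CD133+ cells of KATO-III were lower without overlap, and the change of -0.31 (SE 0.12) was not called (adjusted p = 0.0773). ABCG4, its close relative, was above the floor on 3 arrays and was called in no line.

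ABCA3, a transporter of surfactant phospholipids into lamellar bodies, showed the largest fall of the tested members in SNU-216, where the intensities were 93.2 and 63.5 in CD133+ and 253 and 222 in CD133- cells. It was lower by 1.62 (SE 0.20, adjusted p = 0.0004), a 3.08-fold difference. It was no longer called with only the 4 SNU-216 arrays in the fit (adjusted p = 0.0716). In KATO-III the values were 500 and 537 against 746 and 647, a change of -0.42 (SE 0.20, adjusted p = 0.128), and in SNU-601 they were 151 and 115 against 88.7 and 95.4, a change of 0.52 (SE 0.20, adjusted p = 0.118). The fractions did not overlap in any line, and the direction in SNU-601 was opposite to that in the other two. KATO-III was 4.44-fold above SNU-216 and 5.45-fold above SNU-601 over both fractions.

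ABCA7, a phospholipid transporter with a role in phagocytosis, was highest in SNU-601, with 331 and 364 in CD133+ and 243 and 224 in CD133- cells. The change there was 0.57 (SE 0.19, adjusted p = 0.0723). In SNU-216 the values were 69.5 and 73.3 against 96.3 and 143, lower in CD133+ cells by 0.72 (SE 0.19, adjusted p = 0.0196). This call was lost without CD133+ replicate 1 or 2 or CD133- replicate 2 of SNU-216 (adjusted p up to 0.0981) and with a floor of 100. SNU-601 was 4.11-fold above KATO-III and 3.11-fold above SNU-216.

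ABCA2, a transporter of endosomes and lysosomes that acts on sterol trafficking, was called lower in SNU-216 by 0.44 (SE 0.11, adjusted p = 0.0148). Its values there were 162 and 157 against 219 and 215. The call was lost without CD133+ replicate 2 or CD133- replicate 1 of SNU-216 (adjusted p up to 0.0674).

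The remaining lipid transporters had no level to compare. ABCA4, ABCA5, ABCA6, ABCA8, ABCA10, ABCA12, ABCA13, ABCB4 and ABCG8 were never above the floor. ABCA9 and ABCG5 were each above it on 1 array, and at most at 44.8. ABCB11, the bile salt exporter, and ABCB5 were likewise under the floor on all arrays, as were ABCD2 and ABCD4.

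ABCD3, a peroxisomal importer of branched-chain acyl-CoA, was higher in the CD133+ cells of SNU-216, with 839 and 854 against 493 and 439. The change was 0.86 (SE 0.11, adjusted p = 0.000621). In KATO-III the values of 589 and 616 lay between the CD133- values of 703 and 549, and in SNU-601 they were 739 and 725 against 763 and 859, with changes of -0.04 (SE 0.11) and -0.15 (SE 0.11) that were not called.

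**Figure D3:**
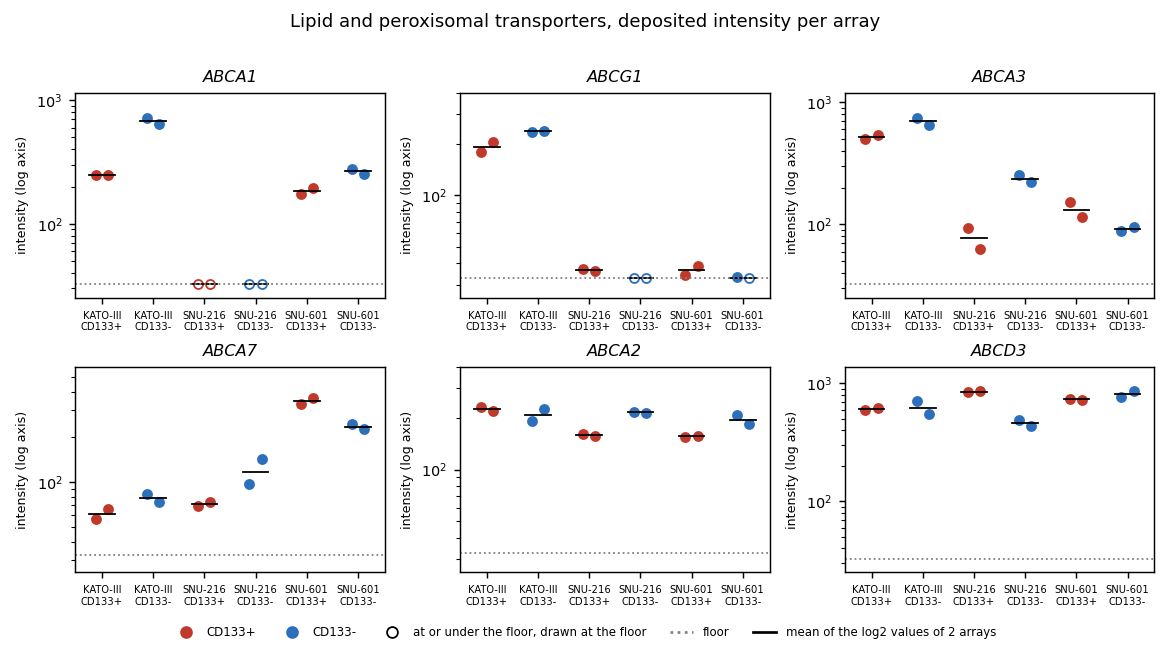
Deposited intensity (y axis, log scale, different for each gene) of 5 lipid transporters and ABCD3 on each array, by population (x axis). Symbols are as in the plot of the efflux transporters. ABCA1 is under the floor on all 4 SNU-216 arrays, and ABCA3 in SNU-216 is at 93.2 and 63.5 in CD133+ cells against 253 and 222 in CD133- cells.

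ABCB9, a lysosomal peptide transporter, was called in all 3 lines, and not in the same direction. Its intensities were 628 and 629 in CD133+ and 467 and 455 in KATO-III CD133- cells, 471 and 471 against 795 and 809 in SNU-216, and 985 and 1064 against 722 and 822 in SNU-601. The fractions did not overlap in any line. It was higher in CD133+ cells by 0.45 (SE 0.07, adjusted p = 0.000946) in KATO-III and by 0.41 (SE 0.07, adjusted p = 0.00497) in SNU-601, and lower by 0.77 (SE 0.07, adjusted p = 8.72e-05) in SNU-216. The SNU-601 call was lost with only the 4 arrays of that line in the fit (adjusted p = 0.16).

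ABCB10, a mitochondrial inner membrane transporter needed for heme synthesis, was at 1699 and 1658 in CD133+ and 1041 and 1019 in KATO-III CD133- cells, higher by 0.70 (SE 0.09, adjusted p = 0.0004). In SNU-216 it was at 791 and 886 against 581 and 698, higher by 0.39 (SE 0.09, adjusted p = 0.0133). The SNU-216 call was lost without CD133+ replicate 2 or CD133- replicate 1 of that line (adjusted p up to 0.0905). In SNU-601 the order of the fractions was opposite, with 1163 and 1053 against 1374 and 1284, and the change of -0.26 (SE 0.09) was not called (adjusted p = 0.0993).

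ABCB6, a porphyrin transporter, was higher in the CD133+ cells of KATO-III and SNU-216. The values were 941 and 830 against 702 and 635 in KATO-III, higher by 0.40 (SE 0.08, adjusted p = 0.00436), and 746 and 693 against 449 and 457 in SNU-216, higher by 0.67 (SE 0.08, adjusted p = 0.000453). In SNU-601 they were 620 and 673 against 647 and 618 and overlapped.

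ABCB8, which acts in mitochondrial iron export, was lower in the CD133+ cells of SNU-216, with 73.1 and 68.2 against 151 and 185. The change was -1.24 (SE 0.25, adjusted p = 0.00509), and it was not called with only the 4 SNU-216 arrays in the fit (adjusted p = 0.0533). In KATO-III and SNU-601 the changes were 0.52 (SE 0.25) and 0.54 (SE 0.25), with adjusted p = 0.137 and 0.19.

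The soluble members were all above the floor on all arrays. ABCE1, which splits ribosomes after termination, was at 3277 and 3254 in CD133+ and 1460 and 1437 in KATO-III CD133- cells. It was higher by 1.17 (SE 0.10, adjusted p = 3.71e-05), a 2.25-fold difference. The values in SNU-216 were 2709 and 2212 against 2200 and 2171, and in SNU-601 1749 and 1627 against 2048 and 1707. The fractions overlapped in SNU-601, and neither line was called, with changes of 0.16 (SE 0.10) and -0.15 (SE 0.10).

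ABCF2 was lower in the CD133+ cells of SNU-216, with 752 and 768 against 1258 and 1155, by 0.67 (SE 0.08, adjusted p = 0.000333). It was not called in KATO-III (0.16, SE 0.08) or SNU-601 (-0.14, SE 0.08). KATO-III and SNU-216 were 1.95-fold and 1.92-fold above SNU-601. ABCF1, which acts in translation initiation, was lower in the CD133+ cells of KATO-III, with 4856 and 4515 against 5697 and 5640, by 0.28 (SE 0.05, adjusted p = 0.0014). In SNU-216 it was lower by 0.15 (SE 0.05, adjusted p = 0.0363), and that call was lost without any 1 of the 4 SNU-216 arrays or of the KATO-III CD133- arrays (adjusted p up to 0.166). ABCF3 was called in no line, nor was ABCA11, a locus thought not to encode a working transporter. ABCA11 was under the floor on all SNU-601 arrays and between 206 and 237 in SNU-216, at least 6.85-fold higher.

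**Figure D4:**
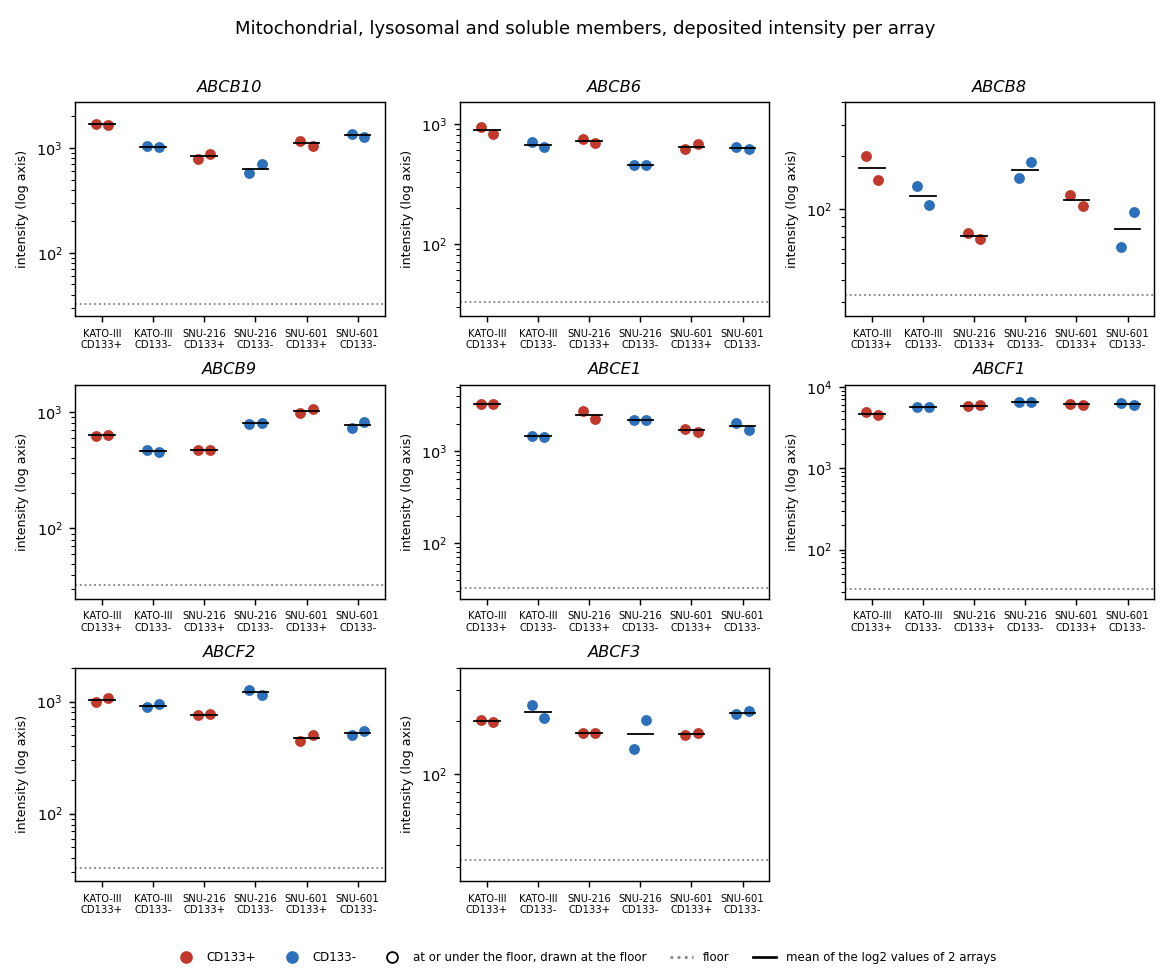
Deposited intensity (y axis, log scale, different for each gene) of mitochondrial, lysosomal and soluble members on each array, by population (x axis). Symbols are as in the plot of the efflux transporters. ABCB10 and ABCE1 are separated by fraction in KATO-III (3277 and 3254 against 1460 and 1437 for ABCE1), and ABCB9 turns direction in SNU-216.

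Counting across lines, 19 of the 25 tested members were called in at least 1 line, 12 of them in 1 line, 6 in 2 lines and 1, ABCB9, in all 3. Of all genes tested, 56.2% were called in at least 1 line, 33.1% in 1, 18.1% in 2 and 4.97% in all 3. The difference of the changes between lines was itself tested, and 18 of 25 members passed, against 44.4% of all genes tested. With only the 4 arrays of a line in the fit, 5 members were higher and 3 lower in KATO-III, 3 and 2 in SNU-216, and none in SNU-601. That fit called 11.9% of all genes higher and 14.1% lower in KATO-III, 6.02% and 6.23% in SNU-216, and 0.531% and 0.506% in SNU-601. ABCG1, near or under the floor on the SNU-216 arrays, gained a call as higher there. The calls lost in that fit were ABCB6, ABCG2 and ABCF1 in KATO-III, ABCA2, ABCA3, ABCA7, ABCB8, ABCB10, ABCC4 and ABCF1 in SNU-216, and all 5 in SNU-601.

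Markers of other cells moved with the fractions in some lines. ACTA2, a smooth muscle actin, was at 598 and 580 in the CD133+ and 38.3 and 25.2 in the CD133- cells of SNU-216, higher by 4.06 (SE 0.14, adjusted p = 6.91e-07). The summed intensity of the 10 markers was between 598 and 618 in the CD133+ and between 33.4 and 74.3 in the CD133- arrays of that line. In KATO-III it was between 1324 and 1350 against 1681 and 1696, mostly CD14, which was lower in CD133+ cells by 0.53 (SE 0.12, adjusted p = 0.00609), and in SNU-601 it overlapped. PTPRC, CD3E, PECAM1, COL3A1 and DCN were under the floor in all populations. Whether ACTA2 or CD14 has a part in the changes of the ABC genes was not tested.

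Over the 3 lines, with the line as a block, no member was called in either direction by limma, against 2.62% of all genes called higher in CD133+ cells and 2.11% called lower. That share of all genes depends on counting the 2 arrays of a population as independent. With the population as a random block (correlation 0.641), 1 gene (0.00496%) was called higher and 0 lower. A replicate block, which still counts the arrays as independent, gave 2 (0.00993%) and 0. Averaging the arrays of a population gave 0 and 0. That fit did not call PROM1, the sorted gene, either (adjusted p = 0.796), so its counts cannot tell members from other genes. The count of 0 members was not read as a shortfall. At an unadjusted p under 0.05, 3 members were higher and 4 lower, beside 11.5% and 13% of all genes. ABCB6 was nearest to a call, with a change of 0.37 (SE 0.10, adjusted p = 0.0629). It was called with the arrays centred on their medians (adjusted p = 0.0479) and among genes above the floor on all 12 arrays (adjusted p = 0.0442). It was also called without SNU-601 CD133+ replicate 1 (change 0.42). Its highest adjusted p over the settings tried, 0.796, is the value PROM1 had with averaged arrays, where no gene was called. Others were ABCA1 at -0.66 (adjusted p = 0.0774), ABCC4 at -0.39 (0.0866), ABCF1 at -0.15 (0.11), ABCC5 at -0.29 (0.171) and ABCE1 at 0.40 (0.203). The median change of the 25 members was -0.17, and that of all genes was -0.01.

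Of the 18 members above the floor on all arrays, 2 had a higher mean in CD133+ cells in all 3 lines (ABCB6 among them) and 3 a lower mean (ABCC4, ABCC10 and ABCF1). This is 27.8% with 1 direction, beside 26.3% of the 11674 genes above the floor on all arrays. No member had all 6 CD133+ arrays on one side of all 6 CD133- arrays, and 0.677% of these genes did. The signal-to-noise ratio, the difference of the means of the fractions over the sum of their SDs, exceeded 1 for no member and was below -1 for no member, against 0.586% and 0.472% of all genes tested. Its extremes were 0.744 for ABCB6 and -0.546 for ABCG4. The ratio used intensities without the floor, and ABCG4 was above the floor on only 3 arrays. Among members above the floor on all arrays, the lowest was ABCF3 at -0.518. Taken within each line and averaged, the ratio exceeded 1 for 6 members and was below -1 for 12, against 22.2% and 25.2% of all genes tested.

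Between lines, with the mean of both fractions compared, most tested members differed. In KATO-III 13 were higher and 4 lower than in SNU-216, against 30.3% and 31.7% of all genes. Against SNU-601, KATO-III had 11 members higher and 9 lower, against 28.7% and 29.9% of all genes. In SNU-216 3 members were higher and 13 lower than in SNU-601, against 29.4% and 27.1% of all genes. The members low in SNU-216 against both other lines included ABCA1, ABCC3, ABCC4, ABCC5 and ABCB10. The order of the lines for ABCB10 was KATO-III and SNU-601, which did not differ beyond their spread (0.12, adjusted p = 0.172), then SNU-216, 1.80-fold below KATO-III.

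Genes that act with the family were taken from lists of regulators, partners, conjugating enzymes and relatives. Of 20 transcriptional regulators 17 were tested, of which 4 were higher and 7 lower in the CD133+ cells of KATO-III, 5 and 5 in SNU-216, and 1 and 0 in SNU-601. For these and the lists that follow, the shares of all genes called higher and lower were 18.7% and 20.6% in KATO-III, 14.6% and 14% in SNU-216, and 8.59% and 7.78% in SNU-601. In KATO-III, NFE2L2, the activator of antioxidant genes, was higher by 1.04 (SE 0.07, adjusted p = 7.63e-06), and NR1I2, the pregnane X receptor that activates ABCB1, was lower by 1.41 (SE 0.23, adjusted p = 0.00116). The sterol-sensing receptor NR1H3, an activator of ABCA1 and ABCG1, was lower by 0.82 (SE 0.06, adjusted p = 1.03e-05). Its partner RXRB was lower by 1.09 (SE 0.05, adjusted p = 1.41e-06). The aryl hydrocarbon receptor gene AHR was the regulator called over the 3 lines, lower by 0.30 (SE 0.07, adjusted p = 0.0338). The call was lost with the population as a random block (adjusted p = 0.363 with an estimated correlation). It was lost with a replicate block (adjusted p = 0.159) and in limma without a trend (adjusted p = 0.0586). It was also lost without any 1 array of KATO-III, without CD133- replicate 1 or 2 of SNU-216 and without CD133- replicate 1 of SNU-601 (adjusted p up to 0.0854). Each fit without an array called fewer of all genes over the lines than the fit with all arrays.

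Of 10 conjugating and other efflux genes 9 were tested, with 3 higher and 2 lower in KATO-III, 1 and 3 in SNU-216 and 1 and 1 in SNU-601. Over the lines, GSR, glutathione reductase, was higher by 0.42 (SE 0.09, adjusted p = 0.0334). MVP, the major vault protein, was lower by 0.65 (SE 0.14, adjusted p = 0.03). With the population as a random block neither was called (adjusted p = 0.233 for GSR and 0.19 for MVP with an estimated correlation). Neither was called with a replicate block (adjusted p = 0.177 for GSR and 0.16 for MVP). Both calls were also lost without any 1 array of KATO-III, and that of GSR without any 1 array of SNU-216 (adjusted p up to 0.0846 for GSR and 0.0768 for MVP). Over the lines, 527 genes were called higher and 426 lower with all arrays. Without 1 array of KATO-III, 144 to 164 were higher and 85 to 101 lower. Without 1 array of SNU-216, 261 to 305 were higher and 208 to 235 lower. The largest change of this list in KATO-III was that of the multidrug and toxin extrusion gene SLC47A2, lower by 2.11 (SE 0.47, adjusted p = 0.00646). Of 12 partners and acceptors 7 were tested, with 1 higher and 1 lower in KATO-III, 2 and 1 in SNU-216 and none in SNU-601. The scaffold gene SLC9A3R1 had the largest of these, lower in KATO-III by 0.62 (SE 0.03, adjusted p = 3.18e-06). Of the 3 relatives outside the rule, all tested, 1 was higher and 0 lower in KATO-III, 0 and 2 in SNU-216 and 1 and 0 in SNU-601. TAP2, a subunit of the antigen peptide transporter, was higher by 0.50 (SE 0.08, adjusted p = 0.00139) in KATO-III. It was lower by 0.32 (SE 0.08, adjusted p = 0.02) in SNU-216, where TAP1 was lower too, and CFTR was called in no line.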

How the data were processed

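RNA of 12 samples (3 gastric cancer cell lines, CD133+ and CD133- fractions, 2 arrays each) was analyzed. The authors deposited quantile-normalized Illumina intensities on a linear scale, 1 row per gene symbol, and the submitters' processing notes name BeadStudio. The background correction and the way probes were combined are not given in the sources used here, and 32.1% of values were at or below 0. Of 34688 rows, 93 were empty.

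Intensities under 32.7, the size of the 1st percentile, were set to that floor, and log2 was taken. The test had been planned for log2 intensities, and the floor made the deposited values fit it. The number of arrays limits precision. limma 3.58.1 (R 4.3.3) with a mean-variance trend was fitted to all 20147 tested genes, with line as a block over the lines (8 residual degrees of freedom) and with 6 population means for changes within lines, between lines and their interaction (6 residual degrees of freedom). Tables and plots used Python 3.11.15, pandas 2.3.3 and matplotlib 3.10.9. The scripts were tested on simulated data. Adjusted p-values at 0.05 were called. Named genes were ABCB1, ABCG2 and all ABCC genes, other members called within a line with an absolute log2 change of at least 0.5 or over the lines, the 5 members with the highest intensity, and members under the floor by name. ABCA2, ABCF3, ABCG1, ABCG4 and ABCA11 fall outside this rule and were added after they were seen. Genes of related lists are counted, with those called over the lines or with the largest change named, and NFE2L2, NR1H3, RXRB and CFTR were added after their values were seen. The members and lists were chosen with earlier results of these data known. Results of some members are not reported here, though counts include them. Alternatives were other floors, an offset, normalizations, filters, fits with 4 arrays, a replicate block, the population as a random block or its arrays averaged, and leaving out each array.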

Additional observations from a re-analysis of the deposited data

Results flagged for a closer look

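The change between CD133 fractions differed between the 3 lines by the interaction test in limma for 18 of the 25 tested members, beside 44.4% of all genes tested. Each value here is the Benjamini-Hochberg adjusted p of that test over all genes. The lowest shown was that of ABCB9 (adjusted p = 4.01e-05), called higher in KATO-III and SNU-601 and lower in SNU-216.

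Of the efflux transporters, the change differed for ABCC3 (adjusted p = 0.000286), ABCC5 (adjusted p = 0.00122), ABCG2 (adjusted p = 0.004) and ABCC4 (adjusted p = 0.0103). Of the lipid transporters it differed for ABCA1 (adjusted p = 0.000366), ABCA3 (adjusted p = 0.000904), ABCA7 (adjusted p = 0.00907) and ABCA2 (adjusted p = 0.0336). Every array was under the floor in SNU-216 for ABCA1, and in SNU-216 and SNU-601 for ABCG2, so that the change there is set to 0 by the floor. Of the mitochondrial transporters it differed for ABCB10 (adjusted p = 0.00115), ABCB8 (adjusted p = 0.00388) and ABCB6 (adjusted p = 0.00602), and so it did for ABCD3 (adjusted p = 0.00167). Of the soluble members it differed for ABCE1 (adjusted p = 0.000304), ABCF2 (adjusted p = 0.00099) and ABCF1 (adjusted p = 0.0267).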

How the results depend on the processing

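Across 80 called changes of members within and between lines, the alternatives other than leaving out an array gave 646 values. Of these, 614 kept their direction and stayed called, 32 were no longer called and none reversed. At least 1 of these alternatives lost 21 of the 80 changes. Most of the 21 were changes between fractions within a line, though most of the 80 were changes between lines. The totals therefore do not give the share for the CD133 changes alone. Leaving out each array gave 960 values, of which 916 stayed called and 44 did not. With a floor of 100, 2 members were higher in SNU-601 CD133+ cells and 5 were higher in SNU-216 than in SNU-601. Of all 13929 genes tested with that floor, 1849 and 5289 were called in the same order. An offset of 100 also gave 2 higher in SNU-601, beside 1673 of 20147 genes. With arrays centred on their medians, 1 member was higher over the lines, beside 657 of 20147 genes. With genes above the floor on all 12 arrays (18 members), 1 was higher over the lines, 3 were lower in KATO-III, 2 were lower in SNU-601 and 7 were higher in KATO-III than in SNU-601. Of all 11674 genes tested in that fit, 674, 3327, 1465 and 4117 were called in the same order. With only the 4 arrays of a line, 3 were lower in KATO-III, 2 were lower in SNU-216, and 0 were higher and 0 lower in SNU-601. Of all genes tested, 14.1%, 6.23%, 0.531% and 0.506% were called in the same order. The signal-to-noise ratio averaged over lines was above 1 for 6 members and below -1 for 12, beside 22.2% and 25.2% of all genes tested. The cause of these moves was not tested. The settings differ in that the stricter filter tested 18 members and the fits of 4 arrays used fewer arrays.

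Leaving out 1 array gave 4 to 8 members lower in SNU-216 (5 without SNU-216 CD133+ replicate 1, 4 without CD133+ replicate 2, 5 without CD133- replicate 1). It gave 1 to 6 lower in SNU-601 (2 without SNU-601 CD133+ replicate 2, 1 without SNU-601 CD133- replicate 1) and 1 to 2 higher (2 without SNU-216 CD133- replicate 1 or 2). Over the lines it gave 0 to 1 higher (1 without SNU-601 CD133+ replicate 1), and 0 to 1 member had a ratio below -1 (1 without SNU-216 CD133- replicate 1). Within the line of the array left out, fewer of all genes were called too. Deviations of same-numbered arrays of the fractions correlated at 0.0261, 0.0129 and -0.0065 in KATO-III, SNU-216 and SNU-601, so no pairing by replicate number was seen. With 2 arrays per population, this cannot tell whether same-numbered fractions were sorted together. With the replicate number as a block, 0 members were called over the lines, 6 higher and 5 lower in KATO-III, 3 and 7 in SNU-216, 1 and 3 in SNU-601, and 17 differed between lines. Of all 20147 genes, that fit called 3431 higher and 3829 lower in KATO-III, 2636 and 2517 in SNU-216, and 1264 and 1111 in SNU-601. It called 2 higher and 0 lower over the lines, and 7891 differed between lines. Members near the floor, such as ABCG2 and ABCG1, have changes limited by signal over background.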
